A study of Mus musculus with 6 samples.

Results

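Secreted factors that attract, feed or polarise myeloid cells were followed in M1, a mouse neuroblastoma cell line grown in culture. The set holds 10 genes, Csf1, Ccl2, Ccl7, Cxcl1, Cxcl12, Cx3cl1, Mif, Spp1, Il34 and Mdk, of the 43629 mouse genes in the count table. They were listed by name, as ligands known to act on monocytes, macrophages and neutrophils. This set and the gene lists beside it were chosen with earlier results of these data known. Comparisons of them with all tested genes are therefore descriptions only. All cells received doxycycline at 4 to 6 µg/ml for 6 days, which induced a short hairpin RNA, and poly-A RNA was then sequenced. In 3 libraries the hairpin was non-targeting (shNT, genotype given as WT), and in the other 3 it was directed at Igf2bp1 (shIGF2BP1, genotype given as knockdown). A single hairpin against Igf2bp1 is named, so its effect cannot be told apart from any other difference between the cells that carry it and the control cells. The labels do not say whether replicates were separate cultures, so a p-value here reflects only how far these 6 samples vary, and that variation may be technical.

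Chemokines are small secreted proteins that bind receptors coupled to G proteins on leukocytes and draw those cells along a gradient. Csf1 and Il34 bind the same receptor, Csf1r, and keep macrophages alive, while Mif, Spp1 and Mdk act on macrophages through other surface receptors. Tumours that release such factors are known to draw in macrophages, and many of the genes respond to the transcription factors NF-kB and AP-1. Igf2bp1 encodes an RNA-binding protein that is known to stabilise messenger RNAs.

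Library totals ran from 25119655 to 35373076 counts, and the test covered the 13445 genes that passed a filter on low counts. A lower level of the targeted transcript was not established in the shIGF2BP1-labelled libraries. Igf2bp1 had 1.25, 5.14 and 6.08 CPM (counts scaled to library size) in shNT replicates 1 to 3 and 2.56, 0.993 and 11.3 CPM in the shIGF2BP1-labelled libraries (log2 fold change 0.25 ± 0.79 SE, edgeR adjusted p = 0.966). The sign of this estimate hung on single libraries. It was -1.24 without shIGF2BP1 replicate 3, -0.18 without shNT replicate 1, and 0.43 to 0.76 with any other library left out. Every direction below therefore refers to the library labels. One control library stood apart for several genes described here: shNT replicate 3 held the highest CPM of all 6 libraries for 24.5% of tested genes but for 18 of 24 tested NF-kB and AP-1 genes. Of 12 neuroblastoma markers 4 could be tested, with Hand2 and Mycn among them, while Th, Dbh and Chga had 0 counts in every library. Of 12 macrophage and leukocyte markers, 9 had a count and 4 could be tested. Their summed level was 11.8 to 17.6 CPM in the controls and 8.57 to 9.80 CPM in the shIGF2BP1-labelled libraries, and its part in the results was not tested. The defining markers Adgre1, Tyrobp and C1qa were at 0 in all libraries, and Ptprc had 1 count in total. Of the 4 tested, only the lysosomal protein Cd68 had a negative estimate, with 11.9 ± 3.6 CPM in the controls and 4.12 ± 1.28 CPM in the others (SD, n = 3 each; edgeR adjusted p = 0.403, no overlap). The other 3 had positive estimates, with log2 fold changes of 2.57 for Fcer1g (no overlap, at most 0.567 CPM), 0.56 for Cd14 and 0.06 for Lyz2 (edgeR adjusted p = 0.616, 0.836 and 0.99). Of these 4 tested markers 1 thus separated upwards and 1 downwards, where 11.6% of all tested genes separated in either direction. In such bulk RNA, fewer cells of a type and less RNA per cell cannot be told apart.

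The factors differed widely in level, and Mif stood far above the rest. Because a long transcript yields more reads, genes were ranked by CPM per kilobase of annotated exon. Over the 6 libraries Mif averaged 423 CPM per kilobase, higher than 99.4% of tested genes, and it made up 72.1% to 89.4% of the summed level of the 10 genes in a library. Spp1 followed at 72.6 CPM per kilobase, higher than 95.1% of tested genes, and Csf1 at 24.1, higher than 81.3%. The lowest Mif library (271) lay above the highest Spp1 library (129), but the ranges of Spp1 and Csf1 overlapped, because Csf1 reached 57.3 in shNT replicate 3 while Spp1 fell to 42.5 in shIGF2BP1 replicate 2. The chemokines Ccl2, Cxcl1 and Ccl7 came next, at 4.86, 3.16 and 2.64 CPM per kilobase. These 3 were not separated from each other, and all lay below every Csf1 library. Il34, Mdk and Cx3cl1 were close to the detection limit, at 0.141, 0.0653 and 0.0523 CPM per kilobase, and their order was not resolved. Cxcl12 (chromosome 6, 117168535 to 117181367), a chemokine that retains bone marrow cells through Cxcr4, had 0 counts in all 6 libraries. A count of 0 allows up to 3 counts, which is 0.0851 to 0.114 CPM depending on the library and covers counting error only.

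**Figure D1:**
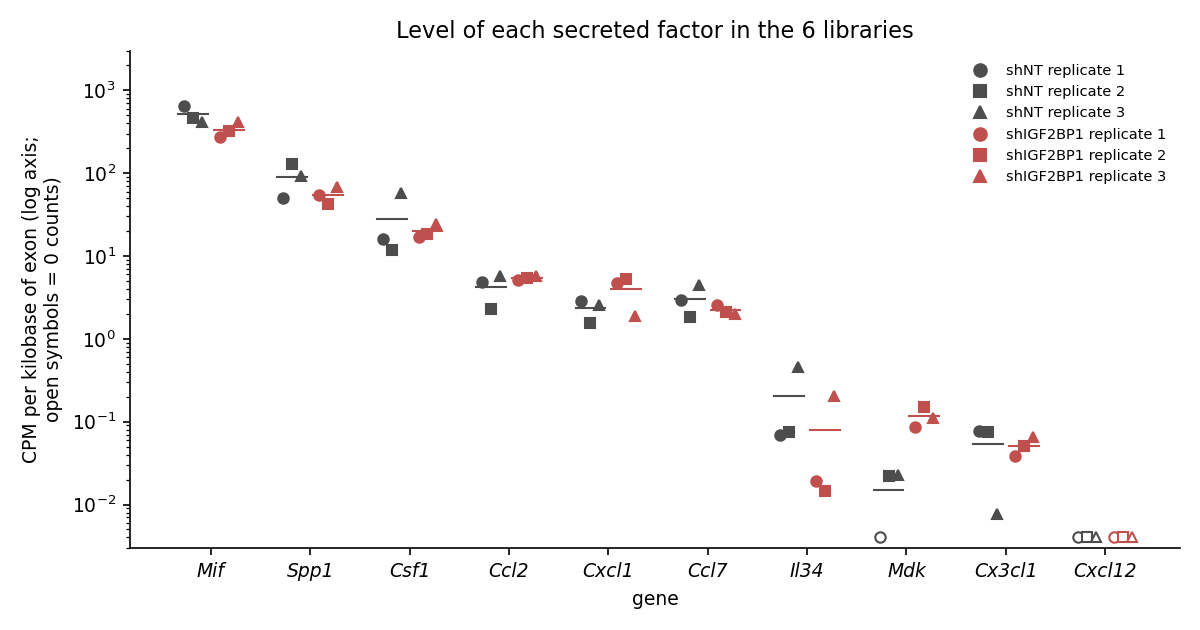
Level of the 10 factors in CPM per kilobase of exon (log axis), with shNT in grey and the shIGF2BP1-labelled libraries in red. Symbols give the replicate, horizontal bars the group means, and open symbols 0 counts. Mif lay above all others, and Cxcl12 was at 0 throughout.

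None of the factors passed the test between groups. Of the 6 that could be tested, edgeR called 0 at an adjusted p under 0.05, where it called 3 of 13445 genes, or 0.0223%. DESeq2, which called 0.61% of tested genes, and limma-voom also called 0 of the 6. At an unadjusted p under 0.05 edgeR counted 2, Mif and Spp1, both lower in the shIGF2BP1-labelled libraries, where 7.16% of all tested genes reached that level and 3.99% did so in that direction. The median log2 fold change of the 6 was -0.48, with 4 negative and 2 positive values, against a median of -0.01 over all tested genes. The libraries of the groups did not overlap for 1 of the 6 tested factors, Mif (lower), where 11.6% of tested genes had no overlap. Of the 3 factors that were detected but too low to be tested, Mdk (higher) also had no overlap, at 0 to 7 counts in a library. The share of 11.6% does not cover genes that low.

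**Figure D2:**
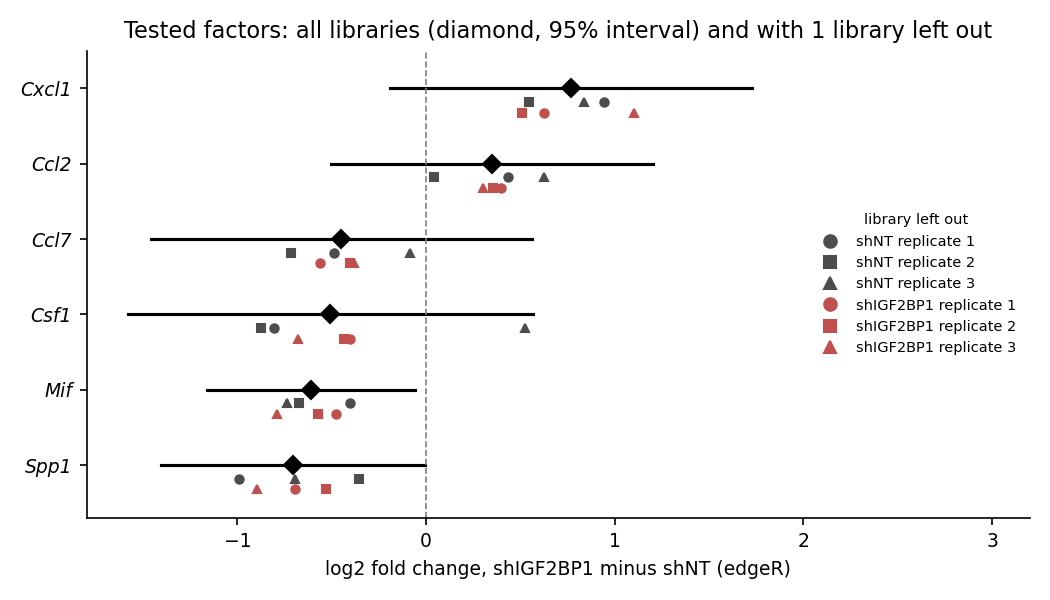
Log2 fold change of the 6 tested factors, shIGF2BP1-labelled libraries minus shNT. Diamonds and lines give the edgeR estimate and 95% interval from all libraries, and small symbols the estimate with the named library left out. Csf1 crossed 0 when shNT replicate 3 was left out, and the other 5 factors stayed on their side of 0.

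Csf1 (ENSMUSG00000014599) is the growth factor on which most tissue macrophages depend, and it varied more within the controls than between groups. Its GRCm38 position is chromosome 3, 107741048 to 107760469, minus strand. It had 83.8, 62.6 and 302 CPM in shNT replicates 1 to 3 and 89.7, 97.8 and 128 CPM in the shIGF2BP1-labelled libraries. A single control library was thus 4.13 times the mean of the other 2 controls, and those 2 lay below all 3 shIGF2BP1-labelled libraries. The group means were 149.6 ± 133 and 105 ± 20.4 CPM (SD, n = 3 each). In log2 units the fold change was -0.51 ± 0.49 (SE; 95% interval -1.58 to 0.56; edgeR adjusted p = 0.888), and it turned to 0.52 without shNT replicate 3. The SD of log2 CPM among controls was 1.21, larger than that of 97.0% of tested genes, against 0.27 among the shIGF2BP1-labelled libraries, larger than that of 54.7%.

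Some other cytokine genes and several AP-1 genes were high in the same control library as Csf1. Of the 20 tested other myeloid cytokines, 8 (40%) had their highest value there, against 24.5% of all tested genes. Ptn and Vegfb were low there, at 0.44 and 0.60 times the mean of the other 5 libraries. Il6, a cytokine that drives the acute phase response, had 3.66 CPM in shNT replicate 3 and 0.236 to 0.401 CPM in the other 5 libraries. Lif, a cytokine of the same family, had 49.4 CPM there and 8.16 to 16.3 CPM elsewhere. Both groups overlapped for each gene, and neither passed the test (edgeR adjusted p = 0.743 for Il6 and 0.772 for Lif). The AP-1 subunit Fosl1 had 279.6 CPM in that library against 18.5 to 53.2 CPM in the others, and Jun, another AP-1 subunit, had 434 CPM against 73.5 to 188 CPM. Without shNT replicate 3 the log2 fold change of Il6 moved from -1.95 to 0.50, that of Lif from -0.94 to 0.05, that of Jun from -0.64 to 0.19 and that of Fosl1 from -1.90 to -0.41. Cxcl1, Mif and Spp1 did not have their highest value in this library. Why that library was high was not tested.

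**Figure D3:**
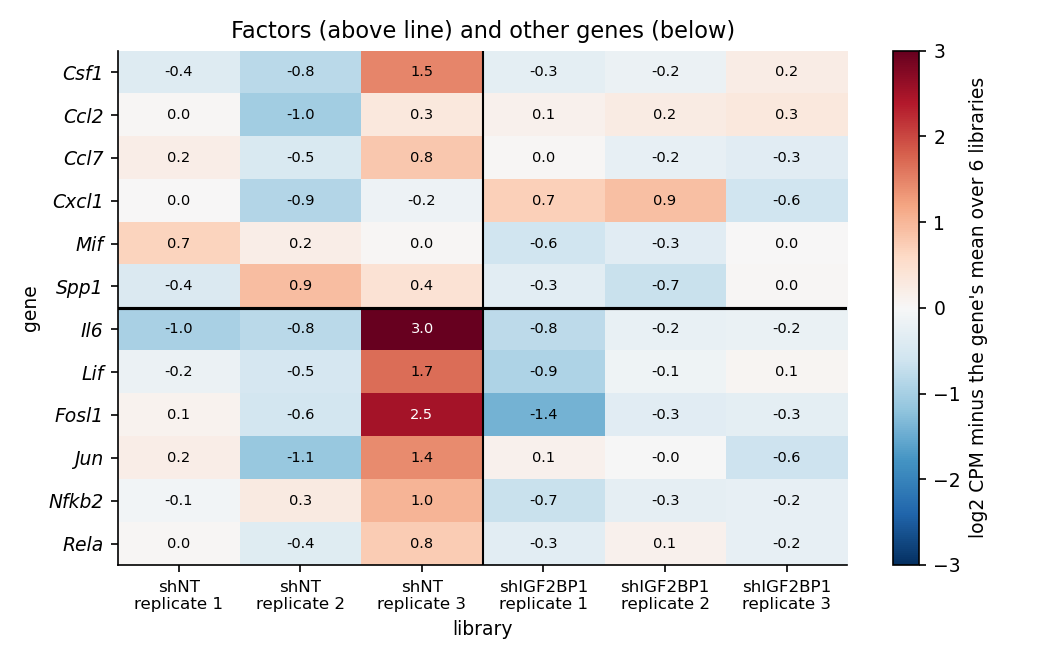
Log2 CPM of 6 factors (above the line) and 6 other genes from the lists (below it) in each library, minus the mean of that gene over the 6 libraries. Red is above and blue below that mean. The 6 other genes are a selection in which all were highest in shNT replicate 3. Ptn and Vegfb, which were low there, are not shown. Csf1, Ccl7, Il6, Lif, Fosl1, Jun, Nfkb2 and Rela had their highest value in shNT replicate 3, at 0.77 (Rela) to 2.99 (Il6).

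The promoters of Csf1 and Cxcl1 are shown because both hold letters of the NF-kB motif, while Csf1 was highest in shNT replicate 3 and Cxcl1 in shIGF2BP1 replicate 2. Each covers 250 bases before to 50 after the start site in RefSeq on GRCm38.p6, read 5′ to 3′ on the strand of the gene, and 6 of the 10 factors had an entry. Capitals mark matches on either strand to GGGA and CC with any 4 bases between them. The form of the motif was chosen after the sequences were seen, and 20.7% of the 32851 promoters in the table hold a match.
Csf1, chr3:107760420-107760719, minus strand: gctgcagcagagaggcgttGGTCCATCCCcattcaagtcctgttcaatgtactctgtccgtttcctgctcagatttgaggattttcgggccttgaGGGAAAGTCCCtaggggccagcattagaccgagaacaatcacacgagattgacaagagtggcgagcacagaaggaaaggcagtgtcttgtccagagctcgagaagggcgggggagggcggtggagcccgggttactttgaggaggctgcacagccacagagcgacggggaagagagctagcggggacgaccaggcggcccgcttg
Cxcl1, chr5:90890995-90891294, plus strand: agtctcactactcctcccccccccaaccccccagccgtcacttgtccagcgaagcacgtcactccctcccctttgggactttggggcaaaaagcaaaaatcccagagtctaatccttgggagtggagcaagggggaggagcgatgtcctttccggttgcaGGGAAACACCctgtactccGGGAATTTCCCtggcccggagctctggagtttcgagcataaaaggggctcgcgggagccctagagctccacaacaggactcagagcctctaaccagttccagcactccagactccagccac
In Csf1 the match GGGAAAGTCC began 155 bases before the start site and overlapped a match on the other strand, and GGTCCATCCC, a match on the other strand, began at 231 bases. In Cxcl1 the match GGGAATTTCC began 71 bases before the start site, again with an overlapping match on the other strand, and GGGAAACACC began at 90 bases. Neither promoter held the AP-1 motif TGANTCA on either strand, which 7.81% of promoters hold. A match is a description of the letters and not of binding.

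Cxcl1 (ENSMUSG00000029380), which draws neutrophils through the receptor Cxcr2, had the largest positive estimate among the 6 tested factors. It lies on chromosome 5 from 90891241 to 90893115. It had 5.43, 2.94 and 4.81 CPM in the controls and 8.89, 9.99 and 3.54 CPM in the shIGF2BP1-labelled libraries. Replicates 1 and 2 of the latter lay above every control, and replicate 3 lay inside the control range. The means were 4.39 ± 1.3 and 7.47 ± 3.45 CPM (SD, n = 3 each), which gave a log2 fold change of 0.77 ± 0.43 (SE; 95% interval -0.19 to 1.73; edgeR adjusted p = 0.778). The SD of log2 CPM in the shIGF2BP1-labelled libraries was 0.81, larger than that of 93.7% of tested genes.

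The Cxcl1 messenger also stood out by its 3′ end. AU-rich pentamers (ATTTA in DNA letters) in this part of an mRNA are known to be bound by decay factors such as those of the Zfp36 family. The annotated 3′ UTR of Cxcl1, 592 bases long, held 7 ATTTA pentamers and 6 TATTTAT heptamers, each heptamer including a pentamer. Of 1305 tested genes with a 3′ UTR of like length (the shorter at least 0.8 times the longer), 0.46% had as many pentamers and 0.0766% as many heptamers, Cxcl1 itself included. The densest 30 bases are shown with the pentamers in capitals, from base 80 to base 109 of the 3′ UTR.
Cxcl1: agggtcctATTTATTTAtgtATTTATTTAt
The 3′ UTRs of Csf1, Ccl7, Spp1, Ccl2, Il34 and Cx3cl1 held 4, 2, 2, 1, 1 and 1 pentamers, that of Cxcl12 held 4, and those of Mif and Mdk held 0. Among the factors other than Cxcl1, a heptamer occurred once each in Csf1, Cxcl12 and Cx3cl1. Heptamers were present in 41.0% of tested genes with a 3′ UTR of about the length of Csf1.

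Ccl2 and Ccl7, neighbouring genes that attract monocytes through Ccr2, were both detected at low level and did not pass the test. Ccl2 (ENSMUSG00000035385) lies on chromosome 11 from 82035571 to 82037453, and Ccl7 (ENSMUSG00000035373) begins 8.3 kb further on and ends at 82047525. Ccl2 had 5.46, 2.58 and 6.56 CPM in the controls and 5.80, 6.24 and 6.56 CPM in the shIGF2BP1-labelled libraries. Its groups overlapped, with shNT replicate 2 alone below the rest. The means were 4.87 ± 2.05 and 6.20 ± 0.384 CPM (SD, n = 3 each), and the log2 fold change 0.35 ± 0.39 (SE; 95% interval -0.50 to 1.20; edgeR adjusted p = 0.899), and without shNT replicate 2 it was 0.04. Ccl7 had 2.33, 1.47 and 3.54 CPM in the controls and 2.06, 1.70 and 1.60 CPM in the shIGF2BP1-labelled libraries, again with overlap. Its log2 fold change was -0.45 ± 0.46 (SE; 95% interval -1.46 to 0.56; edgeR adjusted p = 0.889), and -0.08 without shNT replicate 3. Of the other chemokine genes within 300 kb, Ccl8 had 0 to 8 counts in a library, Ccl11 had 1 count in total, and Ccl1 and Ccl12 had 0. The gene cluster around Cxcl1 was also near 0: Cxcl2, 10.8 kb away, had 1 count in all, and Cxcl3 and Pf4 had 1 each. In the same cluster Cxcl5 had 0 to 2 counts in a control library and 4 to 6 in the others, and Ppbp had 0 to 2 and 1 to 10.

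Mif (ENSMUSG00000033307), a cytokine that binds Cd74 on macrophages, was the factor whose groups separated downwards. Its position is chromosome 10, 75859353 to 75860240, minus strand. It had 482, 348 and 312 CPM in the controls and 202, 239 and 307 CPM in the shIGF2BP1-labelled libraries. The lowest control (312) lay just above the highest shIGF2BP1-labelled library (307), and 5.59% of tested genes separated in this direction. The means were 381 ± 89.8 and 249 ± 53.5 CPM (SD, n = 3 each). In log2 units the fold change was -0.61 ± 0.25 (SE; 95% interval -1.16 to -0.06; edgeR unadjusted p = 0.0329, adjusted p = 0.684). A two-sided exact permutation test of mean log2 CPM gave p = 0.1, the smallest that 3 against 3 libraries allow. With 1 library left out the log2 fold change ran from -0.79 to -0.40 (smallest edgeR adjusted p = 0.49).

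Mif has processed pseudogenes whose reads cannot be fully told apart from its own. In GENCODE M21, 5 processed pseudogenes share at least one stretch of 50 identical bases with a Mif transcript. Together they held 3990 counts, 6.38% of the counts of Mif and these copies. Gm10169, on chromosome 7 from 29965218 to 29965565, had 28.2, 21.1 and 18.1 CPM in the controls and 11.4, 15.1 and 16.3 CPM in the shIGF2BP1-labelled libraries (log2 fold change -0.66 ± 0.26 SE, edgeR adjusted p = 0.684). Gm16379, on chromosome 9 from 14845365 to 14845712, had 4.85, 2.99 and 3.02 CPM in the controls and 1.14, 1.96 and 2.33 CPM in the shIGF2BP1-labelled libraries (log2 fold change -1.0 ± 0.44 SE, edgeR adjusted p = 0.687). Like Mif, both had their lowest value in shIGF2BP1 replicate 1 and their highest in shNT replicate 1. When the 5 copies were added to Mif, the means were 407 ± 96.2 and 265 ± 56.4 CPM (SD, n = 3 each) and the log2 fold change was -0.62 ± 0.25 (SE; edgeR adjusted p = 0.685).

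**Figure D4:**
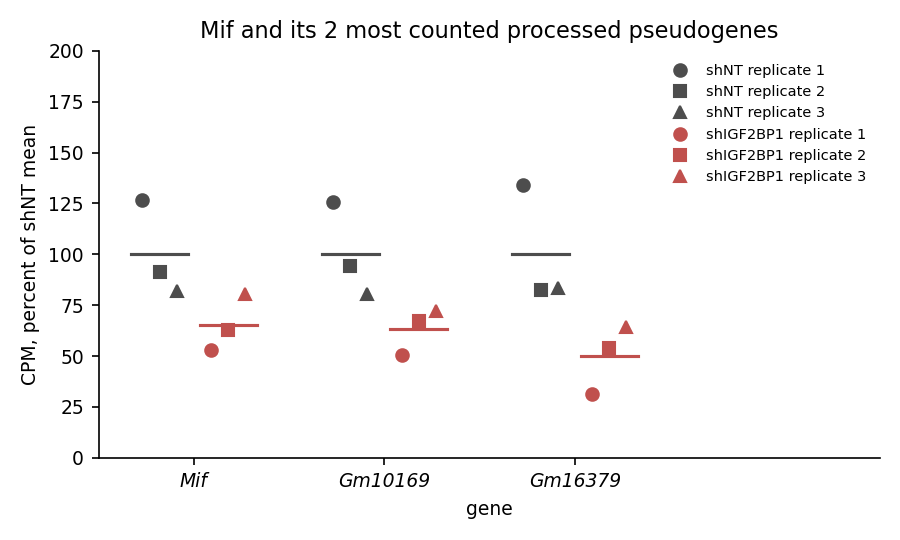
CPM of Mif and of Gm10169 and Gm16379 in each library, as percent of the shNT mean of the same gene. Grey symbols are shNT and red symbols the shIGF2BP1-labelled libraries, with bars at the group means. For all 3 genes every red symbol lay below every grey one.

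The Mif promoter is shown as that of the factor with the highest level. It holds 14 CG pairs, more than 63.7% of promoters. Capitals mark a match to TGACGTCA, the cyclic AMP response element, which reads the same on both strands, begins 24 bases before the start site, and occurs in 1.79% of promoters. No NF-kB match in the form above was present in it.
Mif, chr10:75860228-75860527, minus strand: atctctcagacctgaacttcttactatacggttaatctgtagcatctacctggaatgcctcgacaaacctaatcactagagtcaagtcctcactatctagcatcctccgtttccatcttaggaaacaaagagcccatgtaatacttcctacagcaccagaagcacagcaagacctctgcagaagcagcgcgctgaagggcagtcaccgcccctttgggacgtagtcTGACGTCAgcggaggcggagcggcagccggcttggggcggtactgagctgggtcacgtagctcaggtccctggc

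Spp1 (ENSMUSG00000029304), which encodes the secreted phosphoprotein osteopontin, a ligand of integrins and Cd44 on macrophages, had the largest negative estimate among the 6 tested factors. It lies on chromosome 5 from 104435118 to 104441050. It had 82.2, 212 and 150.4 CPM in the controls and 89.5, 70.1 and 113 CPM in the shIGF2BP1-labelled libraries. Replicates 2 and 3 of shNT were above every shIGF2BP1-labelled library, and shNT replicate 1 lay among them. The means were 148 ± 65 and 90.9 ± 21.6 CPM (SD, n = 3 each), which gave a log2 fold change of -0.71 ± 0.32 (SE; 95% interval -1.41 to -0.004; edgeR unadjusted p = 0.0488, adjusted p = 0.695). Without shNT replicate 2 it was -0.36 and without shNT replicate 1 it was -0.99.

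The second Csf1r ligand, Il34 (ENSMUSG00000031750), was too low to be tested. It occupies 110741829 to 110805924 of chromosome 8 on the minus strand and overlaps 2 antisense genes by 22 and 75 exonic bases, so its low counts are uncertain. It had 4, 5 and 30 counts in shNT and 1, 1 and 11 counts in the shIGF2BP1-labelled libraries. The replicate numbered 3 was the highest of each group. The ratio of pooled normalised counts was 0.363 (95% exact counting interval 0.178 to 0.695), and without shNT replicate 3 it was 1.04 (0.41 to 2.75). Without shIGF2BP1 replicate 3 it was 0.0808 (0.00945 to 0.312). The interval covers counting error only.

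Mdk (ENSMUSG00000027239), which encodes the heparin-binding growth factor midkine, was close to absent, while the related gene Ptn was abundant. Mdk (chromosome 2, 91929805 to 91932297, minus strand) had 0, 1 and 1 counts in shNT and 3, 7 and 4 counts in the shIGF2BP1-labelled libraries. Every shIGF2BP1-labelled library held more than any control, and the ratio of pooled normalised counts was 7.62 with a 95% exact counting interval from 1.75 to 69.1. This interval covers counting error only and leaves out variation between libraries. A two-sided exact permutation test on log2 CPM gave p = 0.1, the smallest possible, and with no filter on low counts edgeR gave an adjusted p of 0.663. Ptn, which encodes pleiotrophin, had 308, 276 and 137 CPM in the controls and 365, 204 and 396 CPM in the shIGF2BP1-labelled libraries, with overlap between groups (log2 fold change 0.42 ± 0.33 SE, edgeR adjusted p = 0.856).

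Cx3cl1 (ENSMUSG00000031778), a membrane-bound chemokine that proteases release, had 9, 10 and 1 counts in shNT and 4, 7 and 7 counts in the shIGF2BP1-labelled libraries. It lies on chromosome 8 from 94772009 to 94782427. The groups overlapped, and the pooled ratio was 0.98 (95% exact counting interval 0.489 to 1.95, for counting error only). Adam10, a protease that sheds it, had 172 ± 17.3 CPM in the controls and 168 ± 19.8 CPM in the shIGF2BP1-labelled libraries (SD, n = 3 each; edgeR adjusted p = 0.98).

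Receptors for these ligands ranged from 0 counts to the 1126 CPM of Lrp1 in the controls. Of 25 receptors and co-receptors, 12 could be tested and edgeR called 0. The integrin chain Itgb3 was the 1 receptor with an unadjusted p under 0.05, where 7.16% of all tested genes had one. The chemokine receptors Ccr2, Ccr3 and Cxcr4 and the decoy receptor Ackr1 had 0 counts in all libraries, as had Ptprz1 and Itga4, and Ccr1 and Cxcr2 had 1 count each. Csf1r, the receptor of Csf1 and Il34, had 0, 4 and 3 counts in shNT and 3, 2 and 19 in the shIGF2BP1-labelled libraries. Cx3cr1, the Cx3cl1 receptor, had 1, 10 and 6 counts in shNT and 1, 5 and 1 in the others. Ackr3, the scavenging receptor for Cxcl12, was measurable at 4.78 to 10.7 CPM. Cd74, the Mif receptor and invariant chain of MHC class II, had 89.0, 43.1 and 158 CPM in the controls and 15.9, 79.7 and 25.2 CPM in the shIGF2BP1-labelled libraries. Its groups overlapped through shIGF2BP1 replicate 2, and its log2 fold change was -1.26 ± 0.57 (SE, edgeR adjusted p = 0.698). The log2 fold change of Cd74 was -2.22 without shIGF2BP1 replicate 2 and -0.71 without shNT replicate 3, its highest library. Itgb3, an osteopontin-binding chain, had 37.8, 41.6 and 16.4 CPM in the controls and 73.2, 55.2 and 51.6 CPM in the shIGF2BP1-labelled libraries, with no overlap (log2 fold change 0.91 ± 0.32 SE, edgeR adjusted p = 0.62). The groups also did not overlap for the syndecan Sdc4, in the other direction, at 127 to 151 CPM in the controls and 93.1 to 113 CPM in the others (log2 fold change -0.39, edgeR adjusted p = 0.732). Of the 12 tested receptors 1 thus separated upwards and 1 downwards, where 11.6% of all tested genes separated in either direction. Of the 4 tested receptors with the highest level, Itgb1 had 645 ± 35.6 and 578 ± 93.4 CPM, Lrp1 had 1126 ± 574 and 855 ± 260.4 CPM, Cd44 had 269 ± 85.9 and 202 ± 45.4 CPM, and Sdc1 had 170.5 ± 36.5 and 174 ± 31.8 CPM (SD, n = 3 each; edgeR adjusted p from 0.81 to 0.986).

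Other chemokines were mostly too low to be tested. Of 33 further chemokine genes 15 had 0 counts in all libraries and 5 could be tested, of which edgeR called 0. Cxcl16, a membrane-bound chemokine, had 18 ± 2.02 CPM in the controls and 14.6 ± 5.07 CPM in the shIGF2BP1-labelled libraries (SD, n = 3 each). Ccl27a and Ccl25, known as chemokines of skin and gut, had 5.97 ± 1.94 and 10.0 ± 2.02 CPM in the controls and 11.1 ± 4.75 and 12.8 ± 3.8 CPM in the shIGF2BP1-labelled libraries. Ccl27a was the 1 of these 5 with an unadjusted p under 0.05, against 7.16% of all tested genes (log2 fold change 0.89 ± 0.38 SE, edgeR adjusted p = 0.686). The interferon-induced T-cell attractants Cxcl9 and Cxcl10 had log2 fold changes of 0.98 and -1.08 (edgeR adjusted p = 0.826 and 0.779). The median of the 5 was 0.36, with 3 positive values.

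Other cytokines that act on myeloid cells had 20 of 37 members tested and 0 called by edgeR, also at an unadjusted p under 0.05. Their median log2 fold change was -0.39, with 15 negative and 5 positive. The angiogenic factor Vegfa, which also attracts monocytes, had 255 ± 57.7 CPM in the controls and 167 ± 90.3 CPM in the shIGF2BP1-labelled libraries (SD, n = 3 each; edgeR adjusted p = 0.775). Vegfb had 97.4 ± 26.5 and 121 ± 13.3 CPM, and Cd47, the signal that restrains phagocytosis, had 75.7 ± 25.6 and 55.9 ± 4.01 CPM. The myeloid cytokines Il1a, Il3, Osm and Tnf were at 0 throughout, and Csf2, Csf3 and Il1b held 4, 3 and 1 counts in all.

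The list of genes taken to cut, bind or retain the ligands gave 14 tested members of 16 and 0 calls by edgeR. Its median log2 fold change was -0.11 (11 negative, 3 positive), with 0 members at an edgeR unadjusted p under 0.05. Plau, the urokinase that activates plasminogen, had 14.6 ± 7.56 CPM in the controls and 26.4 ± 12.7 CPM in the shIGF2BP1-labelled libraries (SD, n = 3 each; edgeR adjusted p = 0.745). The matrix protease Mmp2 had 407 ± 85.2 and 350.4 ± 68.4 CPM, and the matrix protein Thbs1 had 205 ± 79 and 161 ± 54.7 CPM. Atic, a purine enzyme for which a role in handling these ligands was not checked, had 335 ± 25.3 and 327 ± 61.9 CPM.

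Of 25 NF-kB and AP-1 regulators 24 could be tested and edgeR called 0, while 4 were lower in the shIGF2BP1-labelled libraries at an unadjusted p under 0.05, namely Nfkb2, Fosl1, Fosl2 and Cebpb, where 3.99% of all tested genes were. The list's median log2 fold change was -0.41, with 19 negative and 5 positive. Nfkb2, which encodes p100, the precursor of an NF-kB subunit, had 168, 217 and 365 CPM in the controls. It had 112, 148 and 151 CPM in the shIGF2BP1-labelled libraries, with no overlap (log2 fold change -0.87 ± 0.28 SE, edgeR adjusted p = 0.584). The log2 fold change of Nfkb2 was -0.49 without shNT replicate 3. Of the 24 tested regulators 1 separated upwards and 1 downwards, where 11.6% of all tested genes separated in either direction. Rela, the main activating subunit, had 176 ± 72.6 and 138 ± 23.9 CPM, and the hypoxia factor Hif1a had 275 ± 63.8 and 207 ± 41.6 CPM (SD, n = 3 each).

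Of 14 RNA-binding proteins known to act on cytokine messengers, Igf2bp1 among them, 13 could be tested, edgeR called 0, and 0 had an unadjusted p under 0.05. The median was 0.16, with 9 positive and 4 negative. Zfp36l2, which promotes decay at AU-rich sites, had 216, 139 and 497 CPM in the controls and 181, 172 and 181 CPM in the shIGF2BP1-labelled libraries. It was high in the same control library as Csf1, and its log2 fold change of -0.67 ± 0.38 (SE, edgeR adjusted p = 0.778) was 0.006 without it. Khsrp, Hnrnpd and Tial1, which also bind AU-rich sites, had log2 fold changes of 0.30, 0.38 and 0.35 (edgeR adjusted p of 0.80 to 0.89).

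**Figure D5:**
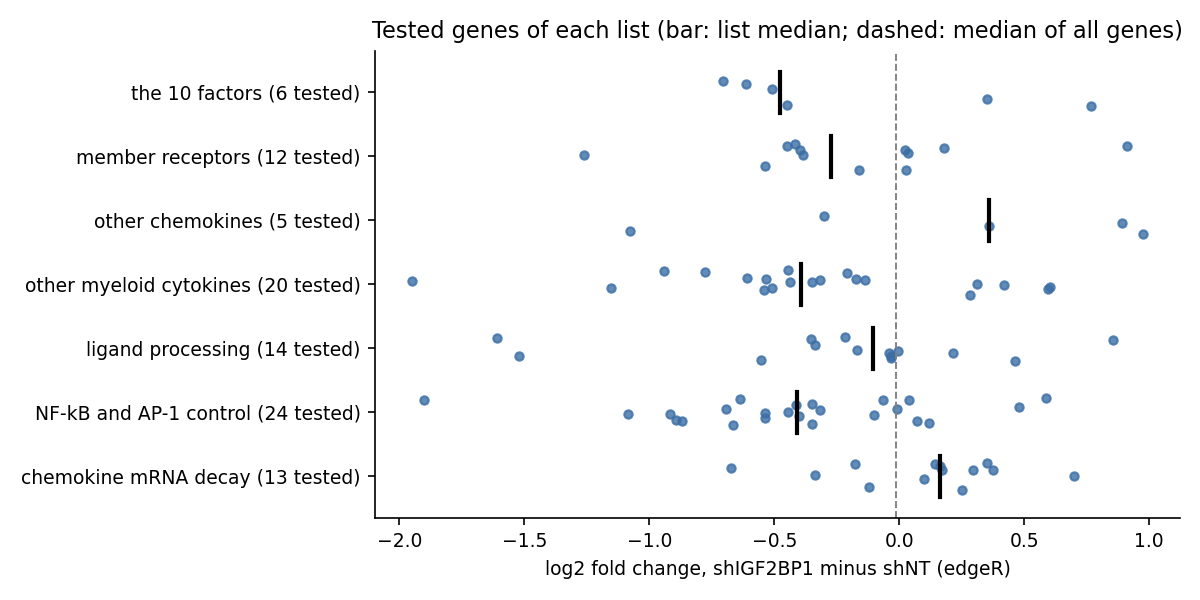
Log2 fold change (shIGF2BP1-labelled libraries minus shNT, edgeR) of every tested gene in the set and in the 6 other lists. Each point is a gene, each bar the median of its list, and the dashed line the median of all tested genes at -0.01. The medians ran from -0.48 for the 10 factors, 6 of them tested, to 0.36 for the other chemokines.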

How the data were processed

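The authors deposited raw read counts per gene, 1 column per library, and the whole numbers are not normalised. Per the submitters' processing notes, the tools were HISAT2 2.1.0, HTSeq and bcl2fastq, on GRCm38. For the annotation, strand setting and read filters the sources say nothing, and antisense and near-identical genes are therefore uncertain. Symbols, exons and 3′ UTRs came from GENCODE M21 on GRCm38 (42462 of 43629 IDs matched) and promoters from RefSeq on GRCm38.p6. The 92 spike-in entries, all at 0, were left out.

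After TMM scaling the groups were compared by edgeR's robust quasi-likelihood F test (edgeR 4.0.16, R 4.3.3; two-sided, no covariates) over 13445 genes that filterByExpr kept (minimum count 10, minimum total 15), with Benjamini-Hochberg adjustment over all of them. Intervals on count ratios are exact binomial at 95%. Alternatives were RLE and library-size scaling, no filter, mean CPM of 5, a replicate block, DESeq2 1.42.0, limma-voom (limma 3.58.1), a threshold of 0.1, and each library left out.

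Members and lists were chosen with earlier results of these data known. Besides the factors and Igf2bp1, the text names from each other list the 4 tested genes with the highest mean CPM and the 2 with the smallest p, and receptors of every factor; a few genes of the lists are not reported here. Other genes, such as the Mif copies, the chemokine neighbours, the macrophage markers, Sdc4, Fosl2, Cebpb and the cytokines at or near 0, were named after their values were seen. Other lists covered receptors, other chemokines, other myeloid cytokines, ligand processing, NF-kB and AP-1 control, mRNA decay, and cell type markers. Summed marker levels in shNT and shIGF2BP1-labelled libraries were 340.1 to 564 and 503 to 533 CPM (neuroblastoma), 37.4 to 54.5 and 31.5 to 73.8 (endothelial), 634 to 956 and 579 to 1057 (fibroblast), 11.9 to 13.0 and 6.34 to 13.4 (Schwann and glial) and at most 0.219 (erythroid).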

Additional observations from a re-analysis of the deposited data

How the results depend on the processing

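No factor and no gene of the 6 other lists was called under any alternative tried. The number of called genes was 3 with RLE or library size only, 138 without a filter, 82 with DESeq2, 18 with the replicate block, 11 at a threshold of 0.1, and 1 with limma-voom or at mean CPM 5, and leaving out single libraries gave 1 to 5. Deviations from the group means correlated at 0.193, -0.0936 and 0.275 between libraries of equal number. Between libraries of unequal number they correlated at -0.368 to 0.215. These ranges overlap and the highest value belonged to an equal-number pair, so the values do not decide whether libraries were paired. The replicate block changed no call of a factor. With the length of coding transcripts 8 of 10 factors kept their place, and Mdk and Cx3cl1 changed places. With RLE and with library size only, 2 of the 10 factors had no overlap between groups, as in the report (Mif and Mdk there). Signs turned for Adam10 (0.041) and Atic (0.042) with library size only, and for Igf2bp1 with the replicate block (-0.047) and limma-voom (-0.239). With libraries left out, log2 fold changes that crossed 0 ran from -0.88 to 0.52 for Csf1, -2.46 to 0.50 for Il6, -1.30 to 0.049 for Lif, -1.06 to 0.19 for Jun, -0.73 to 0.021 for Lrp1, -0.57 to 0.029 for Rela, -1.002 to 0.006 for Zfp36l2, -0.13 to 0.60 for Tial1, -0.14 to 0.04 for Adam10, -0.18 to 0.11 for Atic, -0.11 to 0.21 for Sdc1 and -1.24 to 0.76 for Igf2bp1. The causes were not tested. Library-size scaling moved the median of all genes by 0.08. Il34, Mdk, Cx3cl1 and Cxcl12 were limited by depth. Adding the Mif copies was chosen after seeing the data.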

Other observations

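For the 5 factors with a mean CPM of 5 or more, the genes with the most similar pattern were sought among 10480 tested genes of at least that level, by Pearson r of log2 CPM over the 6 libraries. With 6 points from the same libraries, such values are a description only. Csf1 was most like Slc35f2 (r = 0.996) and Arf3 (r = 0.987), and 51 genes had an r over 0.95. Spp1 was most like Nfic (r = 0.998) and Col4a5 (r = 0.996), Ccl2 like Chchd4 (r = 0.993) and Med29 (r = 0.986), and Cxcl1 like Gpatch1 (r = 0.993) and Brf1 (r = 0.987). Mif was most like Gstm4 (r = 0.981) and its own processed pseudogene Gm10169 (r = 0.981), and 9 genes had an r over 0.95.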
